A study of Mus musculus with 6 samples.

Results

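Genes of ATP-dependent chromatin remodelling were followed in the nucleus accumbens of C57BL/6 mice, the ventral region of the striatum that serves reward. They are the 42 records, of 21540 in the table, whose symbols begin with Chd and a digit, Smarc, Arid and a digit, or Baz and a digit, or are Ino80, Hells, Atrx, Bptf or Ep400. RNA sequencing compared 3 libraries from mice given 7 daily intraperitoneal injections of cocaine with 3 libraries from mice given saline, with tissue of both groups taken at 4 h of withdrawal. The cocaine dose was 20 mg/kg per injection, and as the protocol text is the same for saline libraries, the groups follow the treatment label. No genetic change is named in the labels for either group. Age and sex, and whether a library held 1 animal or pooled tissue, are not stated in the labels, so the spread behind the deposited p-values may be technical.

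Remodellers use the energy of ATP hydrolysis to slide, eject or exchange nucleosomes, and so set which stretches of DNA other proteins can reach. Their motors belong to the SNF2 superfamily and are sorted into SWI/SNF, ISWI, CHD and INO80 types, each working in a complex with accessory subunits that target or tune it. In neurons the SWI/SNF complex exchanges several subunits as progenitors leave the cell cycle, and the neuronal form takes part in activity-dependent transcription and dendrite growth. The 7 records Arid3a, Arid3b, Arid3c, Arid4a, Arid4b, Arid5a and Arid5b are DNA-binding proteins that share the ARID domain but are not subunits of remodelling motors. They were kept because the selection goes by symbol.

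The table gives 1 value per group and gene in FPKM (fragments scaled to transcript length and to the library total). As values are per length, they are set side by side between genes below. Such comparisons are approximate, since exons shared with other genes, described below, leave some values uncertain. Values of single libraries are not in it, so values stand without an SD, the spread between replicates enters only through the deposited p-values, and the depth of the libraries is unknown. The tissue label was checked on 8 spiny neuron markers, which lay between 63.8 FPKM (Drd1a) and 1498 FPKM (Penk) in the cocaine group and between 65.04 and 1531 FPKM in the saline group. As this is bulk tissue, fewer cells of a type and less RNA per cell cannot be told apart. Mitochondrially encoded mRNAs made up 8.15% of summed FPKM in the cocaine group and 6.74% in the saline group, and rescaling to nuclear genes alone moved every log2 value by 0.00047.

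Few records of any kind passed the threshold, and no remodelling gene was among them. None of the 36 members with a test passed q < 0.05 in the authors' deposited table, in which 1.23% of the 14959 tested records passed. At an unadjusted p under 0.05 the authors' deposited table again held 0 of the 36 members, against 5.76% of tested records, and at q < 0.10 again 0, against 1.47%. With shares this low, counts of 0 among 36 do not set these genes apart from all tested records. The smallest member p in the authors' deposited table was 0.0750, for Smarcb1, and the q of each of the 36 was 0.999976. A test was lacking for 6 members: Smarca2, Arid1a, Chd5, Ep400 and Ino80 are marked as failed, and Arid3c, at 0.0214 FPKM in the cocaine group and 0.0365 FPKM in the saline group, is marked as not tested. The log2 fold change of 0 deposited for the failed records is a placeholder, since their 2 group values differ, so the log2 ratio of those values is given for them below. It is not known whether group values of failed records are as reliable as those of tested ones. Levels, ratios and shares that use them carry this limit.

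The median log2 ratio of cocaine over saline was -0.0077 over the 36 tested members, with 16 above 0 and 20 below. Over all 12976 tested records that reached 1 FPKM in either group it was -0.021, with 40.8% above 0. Of the members, 26 lay within 0.1 of 0, or 72.2%, and of all tested records of that level 66.3% did. None of the 27 tested members of at least 5 FPKM differed by more than 0.2 on the log2 scale as deposited. Of the 9487 tested records of that level 5.87% did, so 0 among 27 does not set the members apart. The nearest to that limit was Chd1 at -0.197. It passed the limit, at -0.247, once the trend of fold change with GC content and transcript length was removed. Among all 36 tested members Baz1a and Hells differed by more than 0.2 as deposited. Both were near 1 FPKM, where log2 ratios past 0.2 were common: 23.4% of the 3489 tested records between 1 and 5 FPKM in their higher group had one.

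The size of difference that the authors' test called varied with level. Of 3551 tested records between 20 and 100 FPKM, 73 (2.06%) passed q < 0.05 in the authors' deposited table, with a median absolute log2 ratio of 0.13 and a smallest of 0.048. The 13 tested members in that range reached at most 0.15, for Smarcb1. Between 1 and 5 FPKM, where 9 tested members lie, 10 of 3489 records passed in the authors' deposited table, and the smallest absolute log2 ratio among those was 0.23. A p above the threshold does not show that values were equal, and the table holds no standard error from which an interval of a member's difference could be taken.

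**Figure D1:**
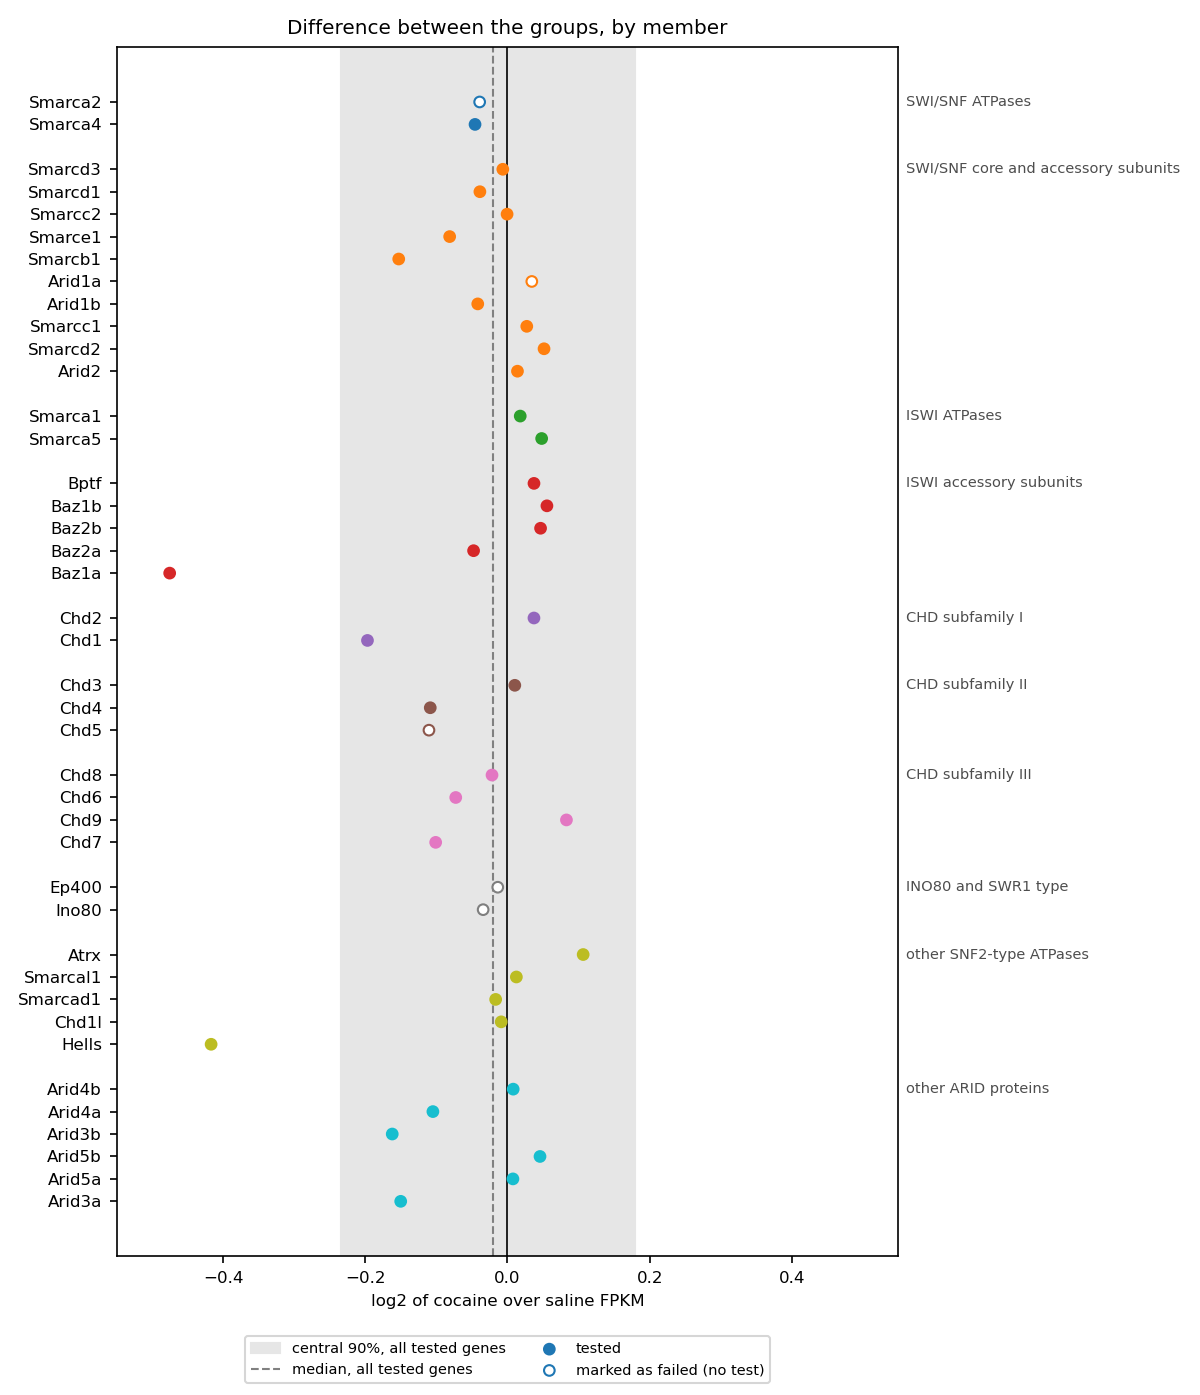
Log2 ratio of cocaine over saline FPKM (x axis) for the 41 members that reached 1 FPKM in either group, by class (rows). Filled points are tested members and open points are records marked as failed; the grey band spans the central 90% of all tested records of at least 1 FPKM, -0.23 to 0.18, and Baz1a (-0.48) and Hells (-0.42) lie outside it.

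The SWI/SNF complex carries 1 of 2 interchangeable motors, Smarca2 (BRM) or Smarca4 (BRG1). Smarca2 stood at 109 FPKM in the cocaine group and 112 FPKM in the saline group, a log2 ratio of -0.039 with no test. Smarca4 was lower in level, at 34.7 FPKM in the cocaine group and 35.8 FPKM in the saline group (log2 ratio -0.046), with p = 0.169 in the authors' deposited table. The ratio of Smarca2 to Smarca4 was therefore nearly the same in the groups, 3.14 in cocaine and 3.13 in saline. It rests on the failed Smarca2 record.

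Among the core subunits, Smarcb1 (SNF5), needed for the complex to engage nucleosomes, had 36.1 FPKM in the cocaine group and 40.1 FPKM in the saline group. Its log2 ratio of -0.15 was the lowest of the 10 core and accessory SWI/SNF genes, and the authors' deposited table gives it p = 0.0750. Smarce1, the HMG-domain subunit, had 38.6 FPKM after cocaine and 40.8 FPKM after saline (p = 0.495 in the authors' deposited table). The remaining 8 lay at most 0.051 from 0 on the log2 scale. The scaffold subunits were led by Smarcc2, at 49.26 FPKM after cocaine and 49.28 FPKM after saline, over Smarcc1, at 14.7 FPKM after cocaine and 14.5 FPKM after saline. Smarcd subunits, which link the complex to transcription factors, were led by Smarcd3 at 68.4 FPKM in the cocaine group and 68.7 FPKM in the saline group. Smarcd1 followed with 51.8 FPKM after cocaine and 53.2 FPKM after saline, and Smarcd2, at 6.94 FPKM after cocaine and 6.69 FPKM after saline, was the minor form. The ARID subunits that distinguish complex forms were Arid1a (28.9 FPKM after cocaine, 28.3 FPKM after saline, no test) and Arid1b (26.9 FPKM after cocaine, 27.6 FPKM after saline), which mark canonical complexes, and Arid2 (5.45 FPKM after cocaine, 5.40 FPKM after saline) of the PBAF form. Arid1a and Arid1b thus had similar levels, and Arid2 made up 8.90% of the 3 after cocaine and 8.80% after saline. Both statements use the failed Arid1a record.

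Subunits outside the 42 include forms that differ between neurons and progenitors. Actl6b (BAF53b), the form of postmitotic neurons, had 64.3 FPKM in the cocaine group and 70.1 FPKM in the saline group, with p = 0.0570 in the authors' deposited table. Its progenitor counterpart Actl6a had 7.71 FPKM after cocaine and 8.17 FPKM after saline, so Actl6b exceeded it by 8.33 times after cocaine and 8.58 times after saline. Ss18l1 (CREST), the neuronal partner of this kind, had 12.95 FPKM after cocaine and 13.5 FPKM after saline, against 6.10 and 6.58 FPKM for Ss18 in cocaine and saline. Dpf1, a neuronal PHD-finger subunit, had 63.0 FPKM after cocaine and 68.6 FPKM after saline. Of the same family, Dpf2 had 22.9 FPKM after cocaine and 24.6 FPKM after saline, and Dpf3 had 1.35 FPKM after cocaine and 1.23 FPKM after saline. Phf10, the progenitor form, stayed at 20.5 FPKM in each group, below Dpf1 but above Dpf3. None of these genes passed an unadjusted p of 0.05 in the authors' deposited table.

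**Figure D2:**
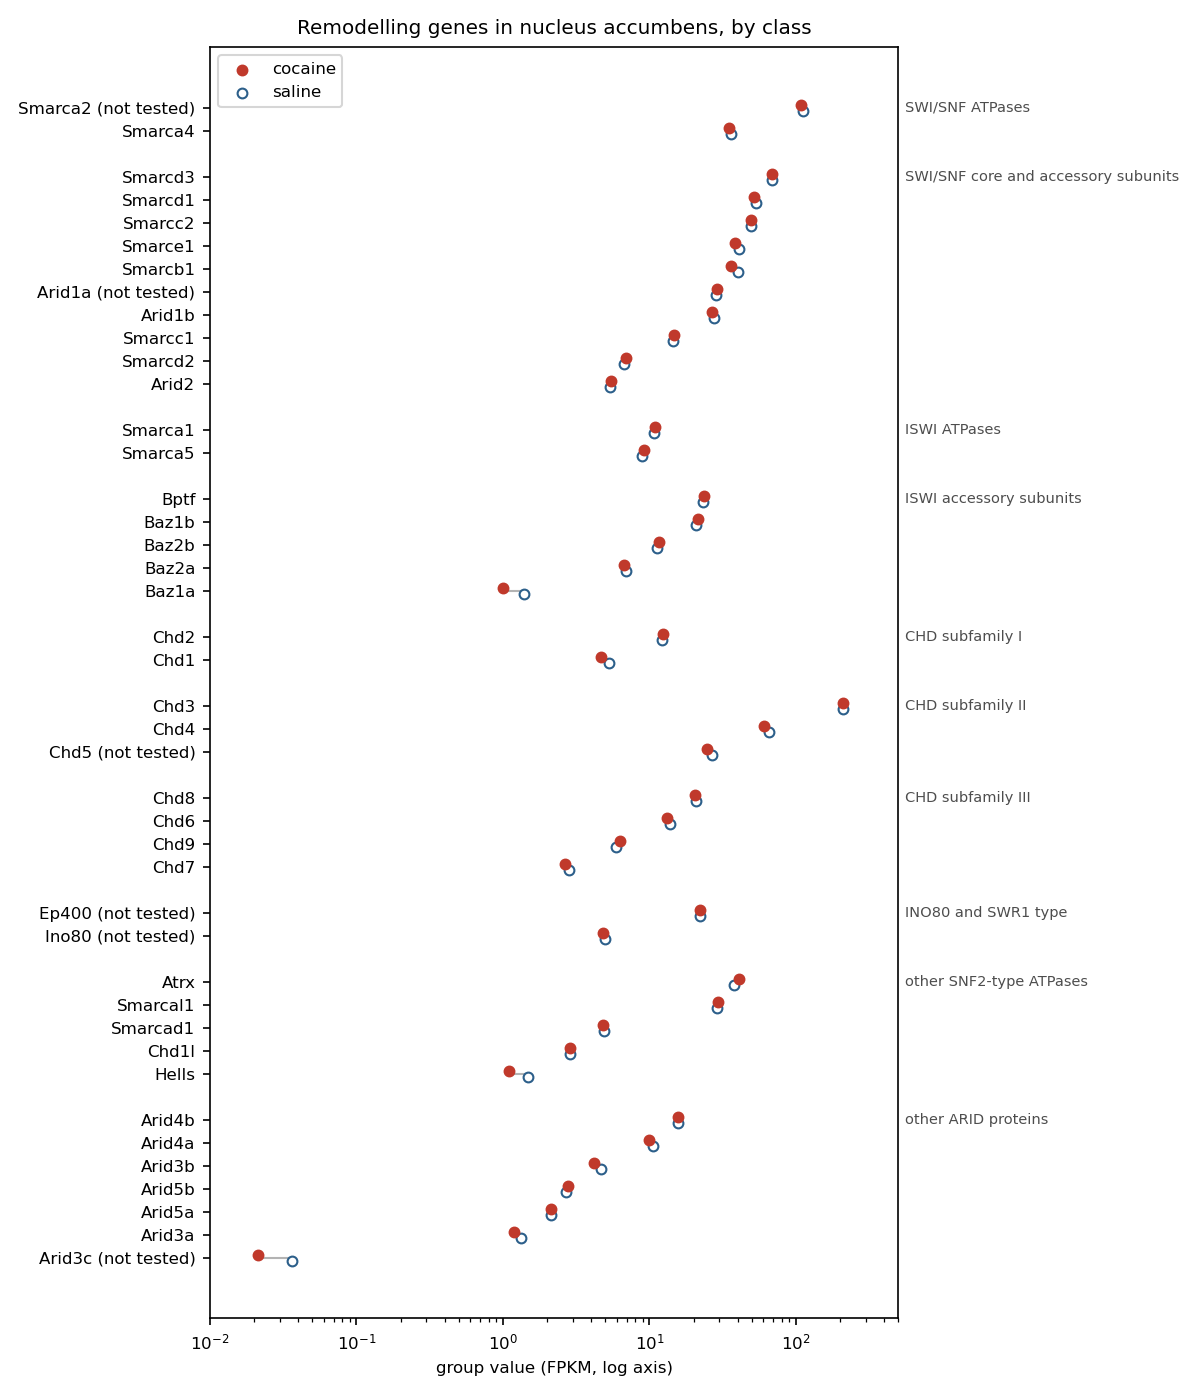
Group values in FPKM (log axis) of the 42 members by class, cocaine as filled and saline as open points. Levels run from 0.0214 FPKM (Arid3c, cocaine) to 211 FPKM (Chd3, cocaine), and for most members the points of the 2 groups overlap.

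ISWI motors space nucleosomes evenly. Smarca1 (SNF2L), the form tied to differentiated neurons, had 10.9 FPKM in the cocaine group and 10.7 FPKM in the saline group. Smarca5 (SNF2H), tied to dividing cells, had 9.12 FPKM in the cocaine group and 8.83 FPKM in the saline group. Their p-values in the authors' deposited table were 0.879 for Smarca1 and 0.806 for Smarca5, and neither was more than 1.22 times the other in either group.

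Of the ISWI partners, Bptf, the histone-reading large subunit of NURF, had 23.7 FPKM after cocaine and 23.1 FPKM after saline. Baz1b (WSTF), which lies in the interval deleted in Williams syndrome in people, had 21.6 FPKM after cocaine and 20.7 FPKM after saline. Baz2b had 11.6 FPKM after cocaine and 11.3 FPKM after saline, and Baz2a (TIP5), which silences ribosomal RNA genes, had 6.72 FPKM after cocaine and 6.94 FPKM after saline. These 4 differed by at most 0.055 on the log2 scale. Baz1a (ACF1), a partner of Smarca5 in nucleosome assembly, had the largest log2 ratio in size of any tested member, -0.48, on values of 1.003 FPKM in the cocaine group and 1.39 FPKM in the saline group. Its p in the authors' deposited table was 0.400, and with a pseudocount of 1 its log2 ratio was -0.26.

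CHD proteins carry paired chromodomains that read histone tails. Subfamily II holds the motors of NuRD, a complex that joins remodelling to histone deacetylation. Its member Chd3 was the most abundant of the 42, with 211 FPKM in the cocaine group and 209 FPKM in the saline group (p = 0.815 in the authors' deposited table). Chd4 had 60.8 FPKM in the cocaine group and 65.6 FPKM in the saline group, a log2 ratio of -0.11 with p = 0.109 in the authors' deposited table. Chd5, a form enriched in neurons, had 24.6 FPKM in the cocaine group and 26.5 FPKM in the saline group, also -0.11, with no test. Chd3 therefore made up 71.2% of the summed FPKM of the 3 after cocaine and 69.4% after saline. Both sums include the failed Chd5 record.

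In subfamily I, Chd1, which binds a histone mark of active promoters, had 4.63 FPKM in the cocaine group and 5.31 FPKM in the saline group. Its log2 ratio was -0.20, with p = 0.407 in the authors' deposited table. Chd2, whose loss in people causes an epileptic encephalopathy, had 12.4 FPKM after cocaine and 12.1 FPKM after saline (p = 0.870 in the authors' deposited table). The share of Chd2 in the pair was 72.9% after cocaine and 69.5% after saline, a gap of 3.33 points that was the widest of the 25 members compared within paralog families. Of those 25, 16 moved by less than 1 point.

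Subfamily III was led by Chd8, an autism gene in people, with 20.4 FPKM after cocaine and 20.7 FPKM after saline. Chd6 had 13.1 FPKM after cocaine and 13.8 FPKM after saline. Chd9 had 6.29 FPKM after cocaine and 5.93 FPKM after saline, the highest log2 ratio of the CHD genes at 0.083 (p = 0.180 in the authors' deposited table). Chd7, mutated in CHARGE syndrome in people, was lowest with 2.65 FPKM after cocaine and 2.85 FPKM after saline.

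**Figure D3:**
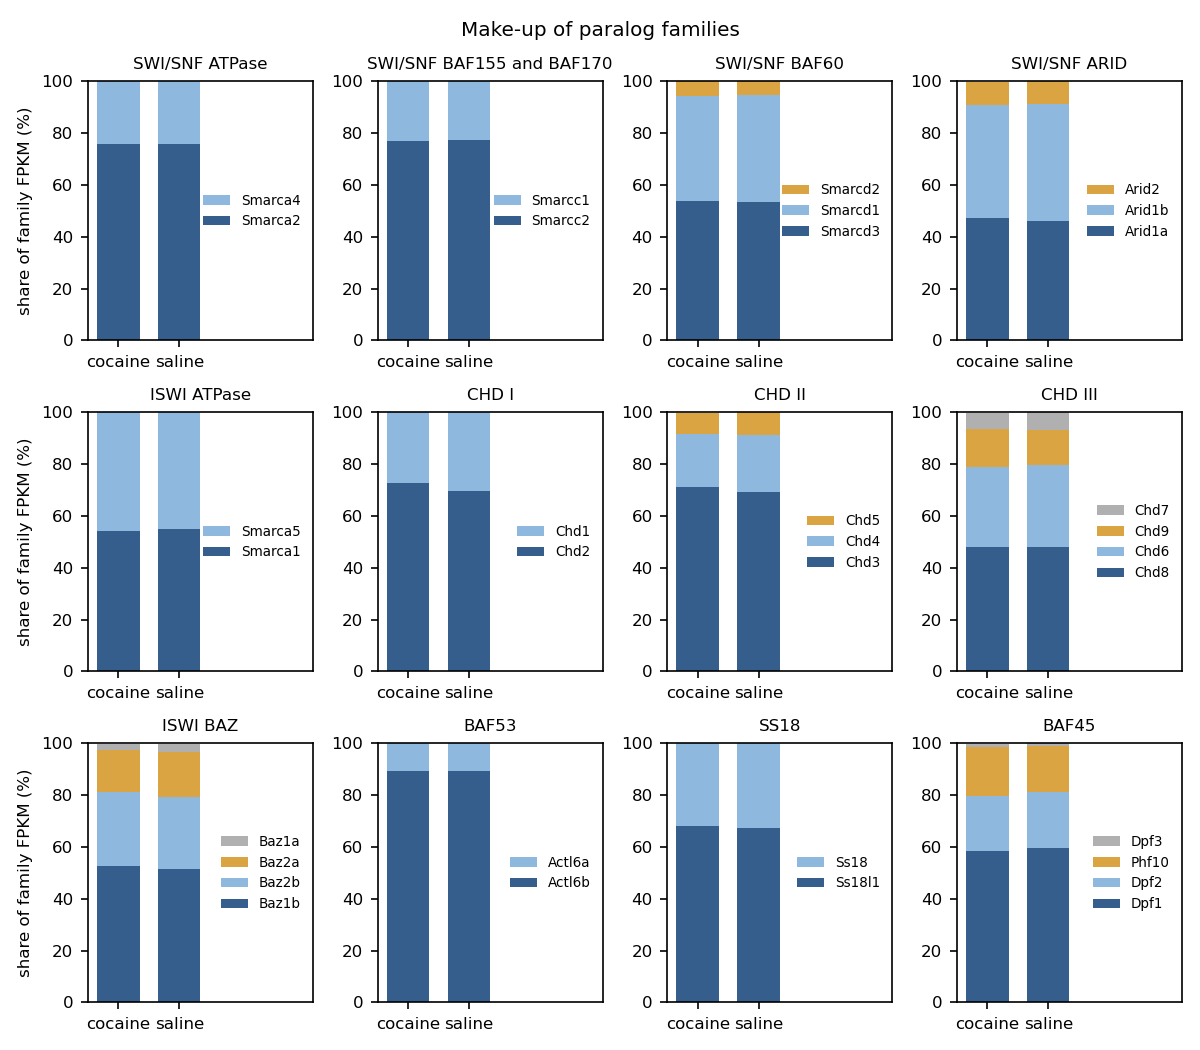
Share of each gene in the summed FPKM of its paralog family (y axis, %), for cocaine (left bar) and saline (right bar), in 9 member families and 3 families of partner subunits (BAF53, SS18 and BAF45). The widest gap among members is that of Chd2 and Chd1, with Chd2 at 72.9% after cocaine and 69.5% after saline. Smarca2, Arid1a and Chd5 are records marked as failed.

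The members of the INO80 and SWR1 types, which exchange histone variants, could be described only by their levels, as both records are marked as failed. Ep400 had 21.95 FPKM in the cocaine group and 22.2 FPKM in the saline group, and Ino80 had 4.85 FPKM in the cocaine group and 4.97 FPKM in the saline group. Their log2 ratios were -0.014 for Ep400 and -0.034 for Ino80.

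Among other SNF2-type motors, Atrx, which deposits a replacement histone at repeats with its partner Daxx, had 40.9 FPKM in the cocaine group and 38.0 FPKM in the saline group. Its log2 ratio of 0.11 was the highest of the tested members, with p = 0.350 in the authors' deposited table. It was 0.042 once the trend of fold change with GC content and transcript length was removed. Smarcal1, a helicase that protects stalled replication forks, had 29.4 FPKM after cocaine and 29.1 FPKM after saline. Smarcad1 had 4.82 FPKM after cocaine and 4.88 FPKM after saline, and Chd1l (ALC1), which acts at DNA breaks, had 2.87 FPKM after cocaine and 2.89 FPKM after saline.

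Hells (LSH), needed for DNA methylation of repeats during development, had 1.10 FPKM in the cocaine group and 1.47 FPKM in the saline group. The log2 ratio was -0.42 (p = 0.813 in the authors' deposited table) and became -0.23 with a pseudocount of 1. Its partner Cdca7 had 2.51 FPKM in the cocaine group and 3.88 FPKM in the saline group, a log2 ratio of -0.63 with p = 0.0873 in the authors' deposited table. Cdca7l, also listed as a partner of Atrx or Hells, had 0.914 FPKM after cocaine and 0.893 FPKM after saline (log2 ratio 0.034). Daxx of the same list had 10.2 FPKM after cocaine and 11.2 FPKM after saline (-0.13). Of 4 markers of neuroblasts and cycling cells, 3 were also lower in value after cocaine, and their summed level was 11.2 FPKM in the cocaine group and 13.3 FPKM in the saline group. Sox11 (4.64 FPKM after cocaine, 6.24 FPKM after saline) passed with q = 0.00290 in the authors' deposited table, Mki67 stood at 0.463 FPKM after cocaine and 0.618 FPKM after saline, and Top2a at 1.47 FPKM after cocaine and 1.92 FPKM after saline. Dcx had 4.60 FPKM after cocaine and 4.51 FPKM after saline, and none of the 4 was at 0. All 4 endothelial markers were lower in value after cocaine, summing to 14.4 FPKM in the cocaine group and 19.9 FPKM in the saline group. Cldn5 (7.46 FPKM after cocaine, 10.2 FPKM after saline) had q = 0.00123 in the authors' deposited table, while Flt1, Pecam1 and Kdr each had q = 0.999976 there. Of 4 markers per cell type, 3 were higher in value after cocaine for astrocytes, 3 for microglia and 1 for oligodendrocytes, with 0 passing q < 0.05 in the authors' deposited table. Of 4 choroid plexus markers 2 were higher and 2 lower in value after cocaine, with sums of 18.5 FPKM in the cocaine group and 8.78 FPKM in the saline group. Most of that gap came from Ttr, at 10.8 FPKM after cocaine and 0.668 FPKM after saline, with q listed as 0 in the authors' deposited table. The part of these cells in the values of Hells, Cdca7 and Baz1a was not tested.

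The ARID proteins outside remodelling complexes were mostly low in level. Arid4b and Arid4a, which bind the retinoblastoma protein, had 15.7 and 9.90 FPKM in the cocaine group and 15.6 and 10.6 FPKM in the saline group. Arid3b had 4.18 FPKM after cocaine and 4.68 FPKM after saline (log2 ratio -0.16), and Arid3a had 1.19 FPKM after cocaine and 1.32 FPKM after saline (-0.15). Arid5b had 2.78 FPKM after cocaine and 2.70 FPKM after saline, and Arid5a had 2.12 FPKM after cocaine and 2.11 FPKM after saline. Their p-values in the authors' deposited table lay between 0.241 (Arid4a) and 0.987 (Arid5a). Without these genes the median log2 ratio of the other 30 tested members was -0.0077, as before.

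A list of 74 further subunits and SNF2-type motors was set against the members. The table held 73 of these genes in 74 records, 2 of them for Srcap, and 73 records were tested. None passed q < 0.05 in the authors' deposited table (1.23% of all tested records), and 2 had an unadjusted p under 0.05 (5.76% of all). These were Bcl7a, at 16.2 FPKM in the cocaine group and 17.5 FPKM in the saline group (p = 0.0180 and q = 0.680 in the authors' deposited table), and Bcl11b, a regulator of spiny neuron identity as well as a SWI/SNF subunit. Bcl11b stood at 60.1 FPKM in the cocaine group and 63.3 FPKM in the saline group (p = 0.0327 and q = 0.951 in the authors' deposited table). The median log2 ratio of the 69 tested records of at least 1 FPKM was -0.023, beside -0.021 for all tested records. Of all 12976 tested records of that level, 7685 lay below 0 as deposited and 40.8% above. The counts below 0 that follow stand beside that share. They were not tested, and genes of the same libraries are not replicates. By complex, 13 of 17 SWI/SNF partners lay below 0 with a median of -0.077, and after correction for GC content and length the count was 13 and the median -0.051. NuRD partners lay below 0 in 7 of 10 cases as deposited and in 1 of 10 once that trend was removed, and their median was -0.013 and 0.036 in those settings. Of the 28 tested INO80, SRCAP and TIP60-p400 partners, 20 lay below 0 as deposited (median -0.022) and 14 once the trend was removed (median 0.0015). Over all 69 tested partner records of at least 1 FPKM the counts below 0 were 46 as deposited and 37 without the trend. Of the 7 tested SNF2-type motors outside the selection at that level, 1 lay below 0 as deposited and 3 without the trend.

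**Figure D4:**
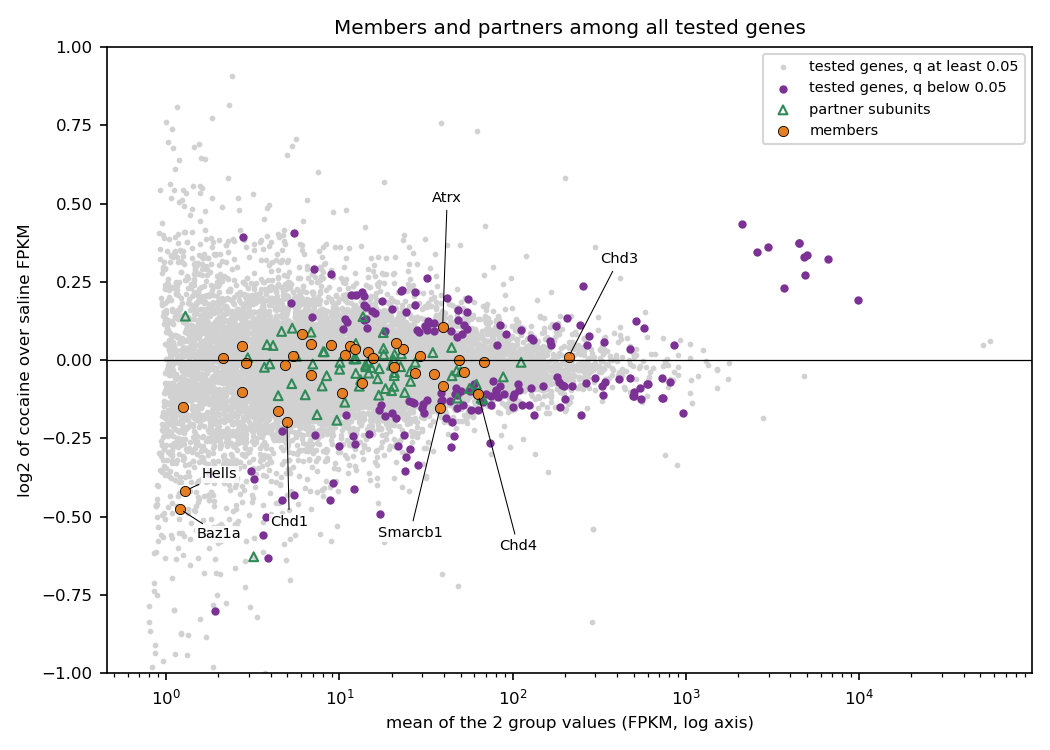
Log2 ratio of cocaine over saline FPKM (y axis) against the mean of both group values (x axis, FPKM, log scale) for tested records of at least 1 FPKM. Grey points have a deposited q of at least 0.05, purple points a q below 0.05, circles are members and triangles partner subunits, 0 of which passed; 31 records lie beyond the y axis.

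The members shared long transcripts, a property the selection by symbol did not use. Their longest annotated transcripts had a median of 6282 bases over the 36 tested members, from 2747 for Smarcd2 to 12036 for Bptf, against 3413 bases over 12634 tested records, and 37 of the 42 were above that value. Their median GC content of 49.4% was close to the 49.9% of all. Across the 36 members, which share libraries and depth, Spearman's rho of the log2 ratio was 0.14 with length (Pearson's r 0.14) and -0.068 with GC content (Pearson's r 0.14), given as a description. Over the 12634 records it was 0.18 with length (Pearson's r 0.095) and -0.30 with GC content (Pearson's r -0.18). Removing that trend left the member median at -0.012 and changed the sign of 7 of the 36 values, among them Smarcd3 (-0.0066 as deposited, 0.061 without the trend) and Smarca1 (0.018 as deposited, -0.019 without it). Without the trend Atrx lay nearer 0, at 0.042. Chd1 (-0.25), Smarcb1 (-0.17), Hells (-0.46) and Baz1a (-0.49) lay further from 0 than as deposited.

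**Figure D5:**
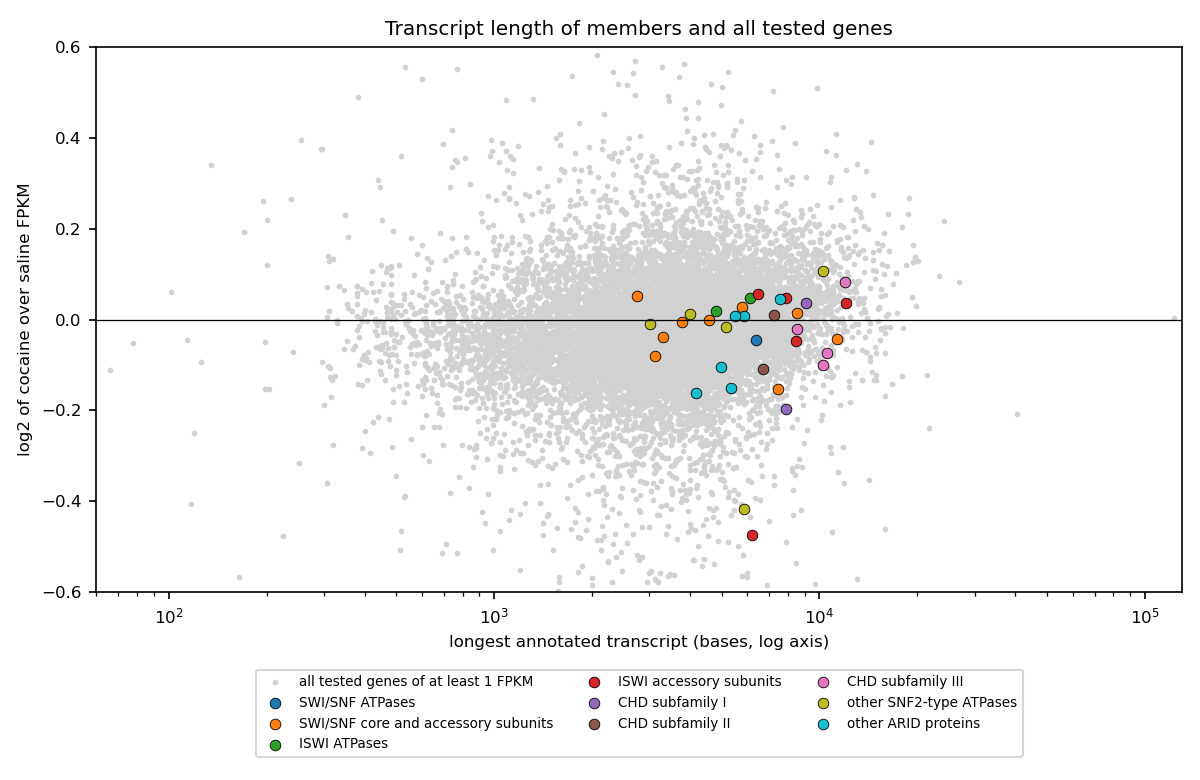
Log2 ratio of cocaine over saline FPKM (y axis) against the length of the longest annotated transcript (x axis, bases, log scale), with all tested records of at least 1 FPKM in grey and the tested members coloured by class. The tested members lie between 2747 and 12036 bases, with a median of 6282 against 3413 for all tested records with a length; 102 records lie beyond the y axis.

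CG pairs in promoters were counted because the study's title names Tet1, an enzyme that oxidises methylated cytosine, which in mammals lies mostly in such pairs. RefSeq promoter sequences on GRCm38.p6, a later build than the authors', matched 33 of the 42 members by symbol. For a symbol with more than 1 promoter, the one with the most CG pairs was used, so counts lean high. The 250 bases before the start held a median of 22 CG pairs in these members, between 4 and 40, against 17 over 8911 tested genes of at least 1 FPKM. At least 1 CG pair, the same on either strand, was present in all 33 and in 99.5% of those tested genes. Of all 27025 symbols with a promoter, counted in the same way, 92.3% had one. The promoter with the most and 1 of the 3 with the fewest are shown to give the range, with CG in capitals. The first lies before Smarcc2 at chr10:128458986-128459235 on the plus strand and holds 40 pairs, and the second before Baz2b at chr2:60125741-60125990 on the minus strand and holds 4.
Smarcc2: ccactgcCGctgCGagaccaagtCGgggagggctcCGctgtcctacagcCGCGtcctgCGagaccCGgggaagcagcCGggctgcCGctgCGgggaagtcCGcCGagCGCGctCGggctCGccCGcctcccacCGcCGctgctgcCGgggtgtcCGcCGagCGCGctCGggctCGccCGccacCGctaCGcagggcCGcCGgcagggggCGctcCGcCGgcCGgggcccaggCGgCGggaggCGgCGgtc
Baz2b: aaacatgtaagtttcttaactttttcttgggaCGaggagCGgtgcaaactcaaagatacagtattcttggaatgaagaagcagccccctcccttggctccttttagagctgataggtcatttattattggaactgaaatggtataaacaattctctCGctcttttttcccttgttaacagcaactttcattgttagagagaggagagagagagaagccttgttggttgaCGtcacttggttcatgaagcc
The log2 ratios of these genes were -0.00057 for Smarcc2 and 0.047 for Baz2b. Methylation itself was not measured in these files.

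In the same later annotation the exons of 19 of the 42 members overlap exons of another gene. A protein-coding neighbour is involved for 5: Arid4b with Ggps1, Smarcc1 with Dhx30, Smarcd3 with Chpf2, Smarcd1 with Gm17349 and Baz1a with Gm20403. Gm20403 lies on the strand of Baz1a, and the other 4 neighbours lie opposite. Whether counting used strand, and how reads in shared exons were divided, is not stated in the labels, so the values of all 19 are uncertain where reads could be shared. Same-strand overlaps with genes of other types include Chd2 with 1810026B05Rik.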

How the data were processed

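Kits from Qiagen (RNA) and Illumina (libraries) were used, per the labels' protocols. The authors ran TopHat2 2.0.6 and Cufflinks 2.0.2 on build NCBIM37, per the submitters' processing notes; settings, annotation, read length and strand: not given in the sources used here. A table of the whole series was used, laid out as a Cuffdiff gene table per the file headers. Its group values, 1 per group over 3 libraries, were read as the authors' deposited FPKM, a unit the file does not write. P-values and q-values are the authors' own, used as deposited. The deposited log2 fold change was handled as a score, because 763 records with 0 in a group hold a placeholder; for other tested records the log2 ratio of the group values differed from it by at most 1.28e-05.

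Records marked as tested were called at q < 0.05. No test was added, since no value per library was used, and the test per library named in the design as an option was not run. Medians used records that reached 1 FPKM in either group. Transcript length and GC content were those of the longest transcript in GENCODE mouse release 21, found for 97.4% of those records. Their trend was removed as the median log2 ratio of each of 10 by 10 quantile cells, a step tested on simulated data. Software was Python 3.11.15 with pandas 2.3.3 and scipy 1.17.1. Every member was described, partners by p under 0.05 plus 7 fixed genes. Cdca7, Cdca7l, Daxx, Dpf2 and Trrap were given with values outside that rule, and Srcap was named without values. Members and lists were chosen with earlier results of these data known. Protein sequences were not used here.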

Additional observations from a re-analysis of the deposited data

How the results depend on the processing

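The count of members past the threshold was 0 under every setting run: a q limit of 0.10, no adjustment, q recomputed over all tested records or over those reaching 1 FPKM, and records reaching 5 FPKM (27 members). Partner subunits gave 0 calls under the same settings, the recomputation over records reaching 1 FPKM not being run for them, except 2 with no adjustment. The member median (-0.0077) lay between -0.014, with the failed records included, and 0.013, centred on the median of all tested records; it was 0.0080 at 5 FPKM or more. As a share, members above 0 lay between 17 of 41 (failed records included) and 20 of 36 (centred), and were 13 of 30 without the 7 other ARID proteins. The partner median lay between -0.031 and -0.0024. Including the failed records and leaving out the ARID proteins were chosen after seeing the data. A pseudocount of 1 moved Baz1a and Hells most. Centring on the median of all genes changed the sign of 5 of 41 members and removal of the GC and length trend that of 7 of 36. No paired analysis was possible because the table holds 1 value per group, and leaving out each replicate could not be run for the same reason. The depth of the libraries is unknown, so what size of change could be missed at a given level was not computed.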

Other observations

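Records marked as failed were more frequent among the remodelling genes than in the table at large: 5 of 42 members, or 11.9%, against 217 of 21540 records, or 1.007%, a difference that was not tested. The 21540 records include those marked as not tested, and 14959 were tested. Failed records had a median of 17.2 FPKM, against 8.72 FPKM for tested records and 12.9 FPKM for the 42 members. The 5 failed members are Smarca2, Arid1a, Chd5, Ep400 and Ino80, with mean levels between 4.91 and 110 FPKM. Why records failed was not tested. The longest transcripts of the 5 had a median of 8187 bases, beside 4705 bases for failed records with a matched transcript and 3330 bases for tested ones. Among the partners, Trrap, a large scaffold of the TIP60-p400 complex, is marked in the same way, at 57.8 FPKM in the cocaine group and 61.1 FPKM in the saline group. The counts of members that passed therefore say nothing of Smarca2, the SWI/SNF motor of higher value here, or of the members of the INO80 and SWR1 types.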
